A study of Mus musculus with 4 samples.

Results

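The genes described here are those of the immunoglobulin heavy and light chains, with the joining chain gene Jchain and the plasma cell chaperone gene Mzb1. They were chosen by gene symbol alone, and 200 of the 32246 genes in the deposited table met the rule. These were 83 heavy, 88 kappa and 3 lambda variable segments, 13 joining segments, 7 heavy constant genes, Igkc, 3 lambda constant genes, Jchain and Mzb1. RNA came from spinal cord mononuclear cells, prepared on a density gradient. The C57BL/6 mice had been immunized to induce EAE (experimental autoimmune encephalomyelitis), a model of multiple sclerosis. One group received microPEP155 (P155), a micropeptide, and the other a scrambled micropeptide (Scr), on alternate days from day 8 after immunization. All mice of both groups had EAE, and no untreated or non-immunized mice were among the samples. There were 4 libraries, P155 replicates 4 and 5 and Scr replicates 4 and 5, and the labels do not say whether a library came from 1 animal or from a pool, or whether different animals gave the 2 libraries of a group. The p-values below therefore measure the spread between these samples alone, and that spread may be technical.

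The values of every library were whole multiples of 1 read, and the reads so recovered over all genes numbered 63862745 and 30777553 in P155 replicates 4 and 5, and 63875412 and 64702948 in Scr replicates 4 and 5. The pan-leukocyte gene Ptprc stood at 11.87 and 11.33 in P155 replicates 4 and 5 and at 11.92 and 12.19 in Scr replicates 4 and 5, on the log2(normalized reads + 1) scale. The myelin gene Mbp stood at 16.75 and 16.46 in the P155 libraries and at 16.69 and 16.02 in the Scr libraries, so leukocyte and myelin transcripts were both present in every library, although the labels name mononuclear cells. In such bulk RNA, fewer cells of a type and less RNA per cell cannot be told apart.

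Each B cell joins a variable and a joining segment (with a diversity segment between them in the heavy chain) in front of a constant gene. Its descendants carry the same variable segment, but unrelated B cells may use that segment too. Counts of segments, as used here, therefore do not identify descendants of a single cell. Naive B cells make Ighm and Ighd from the same rearranged gene, and class switching replaces them with a gamma, epsilon or alpha constant gene further along the locus. C57BL/6 mice carry Ighg2c in place of Ighg2a. Plasmablasts and plasma cells make far more immunoglobulin mRNA per cell than naive B cells do, and they express Jchain, whose product links IgM pentamers and IgA dimers.

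The heavy chain locus lies on chromosome 12, the kappa locus on chromosome 6 and the lambda locus on chromosome 16 of mm10. The leading segments of the P155 libraries are shown first, since the results on segment use turn on them. Each line gives the coding strand of the variable exon as annotated in GENCODE M21 (the longest where transcripts differ), from 5′ to 3′, over at most its last 300 bases. Capitals mark the bases that differ from the most similar other variable segment of the same locus, among those with an annotated coding sequence. Pseudogenes without such a sequence were not compared. That segment was Ighv1-26 for Ighv1-18, with 97.4% identity over 305 aligned bases, and Igkv6-13 for Igkv6-23, with 96.0% over 298 bases. It was Ighv6-3 for Ighv6-6, with 92.6% over 311 bases, and Igkv1-117 for Igkv1-110, with 96.8% over 313 bases.
Ighv1-18, leading heavy segment of P155 replicate 5, variable exon chr12:114682632-114682936, minus strand: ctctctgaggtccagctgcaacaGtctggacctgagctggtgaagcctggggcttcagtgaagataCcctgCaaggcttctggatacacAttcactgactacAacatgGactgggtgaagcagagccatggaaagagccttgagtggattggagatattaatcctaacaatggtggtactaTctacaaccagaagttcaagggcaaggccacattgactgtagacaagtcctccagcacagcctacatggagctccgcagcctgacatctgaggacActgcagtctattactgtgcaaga
Igkv6-23, leading kappa segment of P155 replicate 5, chr6:70260409-70260706, minus strand: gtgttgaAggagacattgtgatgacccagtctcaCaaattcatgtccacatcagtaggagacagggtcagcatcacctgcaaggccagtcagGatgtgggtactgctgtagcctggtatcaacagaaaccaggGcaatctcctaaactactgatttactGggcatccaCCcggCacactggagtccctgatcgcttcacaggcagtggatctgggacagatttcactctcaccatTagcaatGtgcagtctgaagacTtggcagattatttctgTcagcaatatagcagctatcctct
Ighv6-6, leading heavy segment of P155 replicate 4, variable exon chr12:114434788-114435098, minus strand: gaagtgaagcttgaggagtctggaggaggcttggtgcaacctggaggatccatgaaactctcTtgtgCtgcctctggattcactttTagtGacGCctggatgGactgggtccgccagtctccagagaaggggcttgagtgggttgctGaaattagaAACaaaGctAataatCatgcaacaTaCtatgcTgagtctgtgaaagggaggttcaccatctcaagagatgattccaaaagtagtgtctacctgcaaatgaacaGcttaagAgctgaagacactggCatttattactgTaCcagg
Igkv1-110, leading kappa segment of P155 replicate 4, variable exon chr6:68270955-68271267, plus strand: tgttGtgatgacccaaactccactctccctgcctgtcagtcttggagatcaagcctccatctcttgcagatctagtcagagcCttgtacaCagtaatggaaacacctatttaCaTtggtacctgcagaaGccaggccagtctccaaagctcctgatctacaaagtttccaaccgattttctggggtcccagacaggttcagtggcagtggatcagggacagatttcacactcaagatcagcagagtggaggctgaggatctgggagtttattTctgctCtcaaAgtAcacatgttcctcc
How reads that match several segments were counted is not given in the sources used here, so counts of single segments are uncertain between such close relatives.

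Immunoglobulin transcripts were most abundant in P155 replicate 4 and at a similar level in the 3 other libraries. They took 709 reads per 1000000 in P155 replicate 4 and 307 in P155 replicate 5, against 299 and 291 in Scr replicates 4 and 5. The summed level of the 200 genes, as log2 of their summed normalized reads, was 15.22 and 13.96 in P155 replicates 4 and 5 and 13.93 and 13.96 in Scr replicates 4 and 5. Both P155 libraries lay above both Scr libraries, but P155 replicate 5 exceeded Scr replicate 5 by less than 0.01 on this scale. The group difference, P155 minus Scr, was 0.65 (exact permutation test, two-sided, p = 0.33, the smallest p that 2 libraries against 2 allow). It was 0.02 with P155 replicate 4 left out and 1.28 with P155 replicate 5 left out.

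P155 replicate 4 was highest in each of 5 classes summed here (heavy and light constant genes, and heavy, kappa and lambda variable segments). Heavy constant genes summed to 14.14 and 13.18 in P155 replicates 4 and 5 and to 13.27 and 13.37 in Scr replicates 4 and 5, so P155 replicate 5 lay lowest. The difference was 0.34, turned to -0.14 without P155 replicate 4 and was 0.82 without P155 replicate 5. Light constant genes summed to 13.37 and 11.92 in the P155 libraries and to 11.63 and 11.89 in the Scr libraries, and the difference of 0.88 was 0.16 without P155 replicate 4 and 1.61 without P155 replicate 5. Heavy variable segments had the widest range. They summed to 11.31 and 9.21 in P155 replicates 4 and 5, against 9.31 and 7.35 in Scr replicates 4 and 5, so that the groups overlapped. Their difference of 1.93 was 0.88 without P155 replicate 4, 2.98 without P155 replicate 5, 2.91 without Scr replicate 4 and 0.95 without Scr replicate 5. Kappa variable segments summed to 12.01 and 10.38 in the P155 libraries and to 10.07 and 9.17 in the Scr libraries, without overlap, and their difference of 1.57 was 0.76 without P155 replicate 4 and 2.39 without P155 replicate 5. The 3 lambda variable segments summed to 8.80 and 6.88 in the P155 libraries and to 6.95 and 6.36 in the Scr libraries. Their difference of 1.19 was 0.22 without P155 replicate 4 and 2.15 without P155 replicate 5. None of these sums could pass a permutation test in this design, and p was 0.33 to 1.

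**Figure D1:**
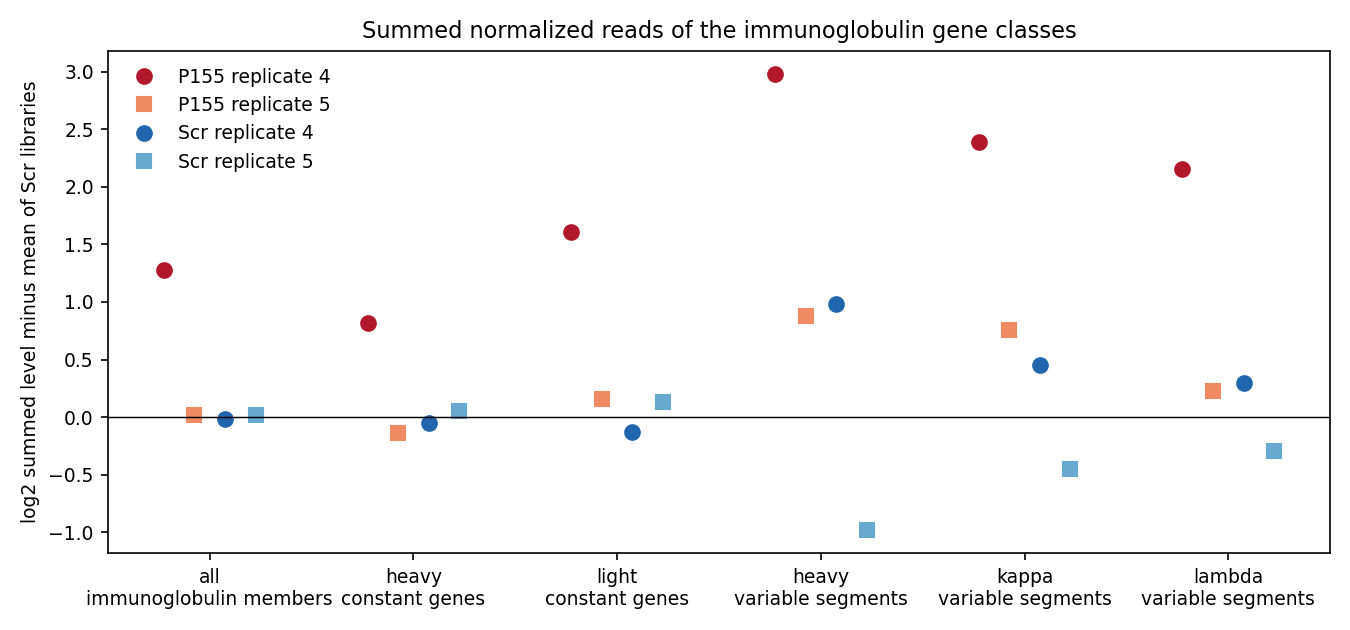
Summed normalized reads of the immunoglobulin gene classes on a log2 scale (y axis), as the difference of each library from the mean of the 2 Scr libraries. Each point is 1 library, P155 replicate 4 lies above the others in the 6 sums plotted, and P155 replicate 5 lies among or near the Scr libraries. Joining segments are not plotted.

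Set against constant gene reads, variable segment reads were scarcest in Scr replicate 5. There were 14.1 and 6.36 heavy variable reads per 100 heavy constant reads in P155 replicates 4 and 5, against 6.43 and 1.53 in Scr replicates 4 and 5. For kappa the figures were 41.6 and 38.0 variable reads per 100 Igkc reads in the P155 libraries and 39.1 and 19.8 in the Scr libraries. Scr replicate 5 had 192 heavy variable reads in all, so 0 reads of a segment there allow a share of up to 1.56%.

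The heavy constant genes divided differently in each P155 library, with Igha prominent in replicate 4 and Ighg2c in replicate 5. Igha (ENSMUSG00000095079, chromosome 12, 113254830 to 113260236, minus strand), the constant gene of IgA, had 13474 and 861 reads in P155 replicates 4 and 5, against 1881 and 1485 in Scr replicates 4 and 5. These were 62.8% (Wilson 95% interval 62.2 to 63.5) and 15.6% (14.7 to 16.6) of heavy constant reads in the P155 libraries, and 15.5% (14.9 to 16.2) and 11.8% (11.2 to 12.4) in the Scr libraries. The intervals cover counting error only, since reads of 1 amplified fragment are not independent molecules. P155 replicate 4 stood alone, and the interval of P155 replicate 5 overlapped that of Scr replicate 4. In log2 levels Igha averaged 11.99 ± 2.10 in P155 and 10.44 ± 0.21 in Scr (SD, n = 2 each), a difference of 1.55 (SE 0.99, limma adjusted p = 0.861). Without P155 replicate 4 that difference was 0.07, and without P155 replicate 5 it was 3.03.

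Ighg2c (ENSMUSG00000076612, 113285325 to 113288932 on the same strand), the constant gene of IgG2c, had 447 and 1334 reads in P155 replicates 4 and 5 and 172 and 240 reads in Scr replicates 4 and 5. Its share of heavy constant reads was 2.08% and 24.2% in the P155 libraries and 1.42% and 1.91% in the Scr libraries. P155 replicate 5 had the highest count although it had the fewest reads in all. On the log2 scale Ighg2c stood at 8.56 and 11.14 in the P155 libraries and at 7.14 and 7.67 in the Scr libraries, so the groups did not overlap. The difference was 2.44 (SE 0.89, limma adjusted p = 0.861, unadjusted p = 0.0438), 3.73 without P155 replicate 4 and 1.16 without P155 replicate 5.

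The other gamma genes did not share that pattern. Among the reads of the 4 gamma genes, Ighg2c took 24.9% and 91.5% in P155 replicates 4 and 5, against 11.9% and 20.1% in Scr replicates 4 and 5. Ighg2b had 523 and 29 reads in the P155 libraries and 493 and 498 reads in the Scr libraries, so that P155 replicate 5 alone was low. Its log2 difference was -1.47 (SE 1.06, limma adjusted p = 0.861) and turned to 0.10 without P155 replicate 5, while it was -3.04 without P155 replicate 4. Ighg1 had 729 and 58 reads in the P155 libraries and 497 and 368 reads in the Scr libraries, and its difference of -0.53 turned to 0.79 without P155 replicate 5 and was -1.85 without P155 replicate 4. Ighg3 was highest in Scr replicate 4, with 94 and 37 reads in the P155 libraries and 287 and 91 reads in the Scr libraries. The gamma genes are related in sequence, so reads may be split between them. The rule covered the epsilon constant gene Ighe, but the deposited table held no gene of that symbol.

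Ighm and Ighd, the constant genes of naive B cells, were lower in both P155 libraries. Ighd (ENSMUSG00000104213, 113406604 to 113416324) had 149 and 93 reads in P155 replicates 4 and 5, against 379 and 763 in Scr replicates 4 and 5. It averaged 7.14 ± 0.23 in P155 and 8.80 ± 0.75 in Scr on the log2 scale (SD, n = 2 each), a difference of -1.66 (SE 0.43, limma adjusted p = 0.861, unadjusted p = 0.0143). Ighm (ENSMUSG00000076617, 113418558 to 113422730) stood at 12.31 and 12.35 in P155 replicates 4 and 5 and at 12.74 and 12.91 in Scr replicates 4 and 5. Its difference of -0.50 was small and even between libraries (SE 0.15, limma adjusted p = 0.861, unadjusted p = 0.0237). The difference kept its sign without each library in turn, between -2.19 and -1.13 for Ighd and between -0.58 and -0.41 for Ighm. The ratio of Ighm to Ighd normalized reads was 40.5 and 33.3 in the P155 libraries and 22.1 and 12.0 in the Scr libraries.

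Shares of the heavy constant reads followed from these counts. Ighm took 28.1% (Wilson 95% interval 27.5 to 28.7) and 56.2% (54.9 to 57.5) in P155 replicates 4 and 5, against 69.3% (68.5 to 70.2) and 72.6% (71.8 to 73.4) in Scr replicates 4 and 5. The group difference was -28.8 percentage points (exact permutation test, two-sided, p = 0.33, the smallest possible), -14.8 without P155 replicate 4 and -42.9 without P155 replicate 5. For Ighd the shares were 0.695% and 1.69% in the P155 libraries and 3.13% and 6.06% in the Scr libraries, again without overlap, and the difference of -3.41 points was -1.94 without Scr replicate 5. Ighg1, Ighg2b and Ighg3 together took 6.28% and 2.25% in the P155 libraries and 10.6% and 7.60% in the Scr libraries, and the difference of -4.82 points was -2.80 without P155 replicate 5. For Igha the difference of 25.6 points was 1.96 without P155 replicate 4 and 49.2 without P155 replicate 5, and for Ighg2c that of 11.5 points was 22.6 without P155 replicate 4 and 0.42 without P155 replicate 5.

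**Figure D2:**
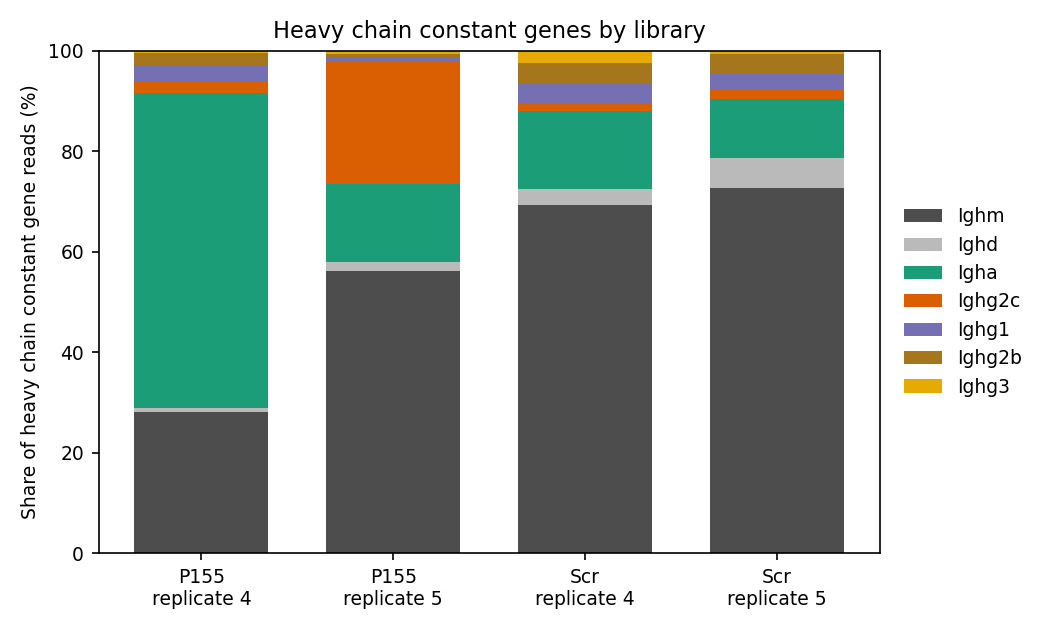
Share of heavy constant gene reads (y axis, percent) taken by each of 7 genes in each library, stacked to 100%. Igha takes 62.8% in P155 replicate 4 and Ighg2c 24.2% in P155 replicate 5, while Ighm takes 69.3% and 72.6% in the Scr libraries.

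Light chain reads came mostly from Igkc in all libraries. Igkc (ENSMUSG00000076609, chromosome 6, 70726435 to 70726966, plus strand), the only kappa constant gene, had 11730 and 2069 reads in P155 replicates 4 and 5 and 3359 and 3437 reads in Scr replicates 4 and 5. On the log2 scale these were 13.27 and 11.77 in P155 and 11.42 and 11.50 in Scr, without overlap, with a difference of 1.06 (SE 0.51, limma adjusted p = 0.861) that was 0.31 without P155 replicate 4 and 1.81 without P155 replicate 5. The 3 lambda constant genes did not share its order of libraries. Iglc2 stood at 6.95 and 7.62 in the P155 libraries and at 7.12 and 8.48 in the Scr libraries, Iglc3 at 7.99 and 6.60 in P155 and at 7.55 and 8.29 in Scr, and Iglc1 at 8.29 and 6.36 in P155 and at 6.67 and 7.80 in Scr. The groups overlapped for each (limma adjusted p = 0.863 to 0.991), and each difference changed sign when 1 library was left out. The difference for Iglc1 was 0.09, and it was -0.88 without P155 replicate 4 and -0.47 without Scr replicate 4. That for Iglc2 was -0.52, and 0.17 without Scr replicate 5. That for Iglc3 was -0.62, and 0.07 without P155 replicate 5.

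The lambda share of light constant reads was 6.50% (Wilson 95% interval 6.09 to 6.95) and 9.65% (8.51 to 10.9) in P155 replicates 4 and 5, against 13.4% (12.4 to 14.5) and 23.5% (22.3 to 24.8) in Scr replicates 4 and 5. The intervals of the P155 libraries lay below those of the Scr libraries. The difference was -10.4 percentage points (exact permutation test, two-sided, p = 0.33, the smallest possible) and -5.35 without Scr replicate 5. Within lambda, Iglc1 took 45.5% and 21.7% of constant reads in P155 replicates 4 and 5, against 23.8% and 24.9% in the Scr libraries. Exons of Iglc2 overlap the joining segment Iglj2, and those of Iglc3 overlap an annotated gene on the opposite strand. The use of strand and of reads that match several genes is not given, so counts of single lambda constant genes are uncertain. The segment Iglv1, which rearranges mainly to Iglc1 and Iglc3, took 87.5% and 72.5% of lambda variable reads in the P155 libraries and 63.3% and 63.5% in the Scr libraries. Iglv2 had 50 and 19 reads in P155 and 24 and 18 in Scr, and Iglv3 had 16 and 0 reads in P155 and 31 and 17 in Scr.

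Per kilobase of exon, Igkc had the highest normalized level of the 13 constant, Jchain and Mzb1 genes in every library, with 18595 and 6565 per kilobase in P155 replicates 4 and 5 and 5152 and 5450 in Scr replicates 4 and 5. Igha came next in P155 replicate 4 (4259 per kilobase, against 2696 for Ighm) and Ighm in the other libraries (2769 in P155 replicate 5, and 3630 and 4088 in Scr replicates 4 and 5). The third place was held by Ighg2c in P155 replicate 5 (1698 per kilobase), by Igha in Scr replicate 4 (575) and by Iglc3 in Scr replicate 5 (691). The lengths used are those of all annotated exons, membrane exons included, so a gene whose mRNA is mainly the secreted form is understated.

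Jchain and Mzb1, both linked to antibody secretion, went different ways. Jchain (ENSMUSG00000067149, chromosome 5, 88519809 to 88527891, minus strand) had 2772 and 365 reads in P155 replicates 4 and 5 and 729 and 627 reads in Scr replicates 4 and 5. On the log2 scale it stood at 11.19 and 9.27 in P155 and at 9.22 and 9.05 in Scr, a difference of 1.10 (SE 0.66, limma adjusted p = 0.861) that was 0.14 without P155 replicate 4 and 2.06 without P155 replicate 5. The ratio of Jchain to Igkc normalized reads lay in a narrow range, at 0.236 and 0.176 in the P155 libraries and 0.217 and 0.182 in the Scr libraries. Jchain to Igha was 0.206 in P155 replicate 4 and 0.424 in P155 replicate 5, against 0.388 and 0.422 in Scr replicates 4 and 5. Mzb1, a chaperone of the endoplasmic reticulum in marginal zone B cells and plasma cells, had 82 and 54 reads in P155 and 101 and 153 reads in Scr, with overlapping groups and a log2 difference of -0.37 (limma SE 0.41, adjusted p = 0.875) that was -0.18 without P155 replicate 4, -0.57 without P155 replicate 5, -0.69 without Scr replicate 4 and -0.05 without Scr replicate 5. Exons of Mzb1 overlap an annotated gene on the same strand, so its reads may be shared.

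**Figure D3:**
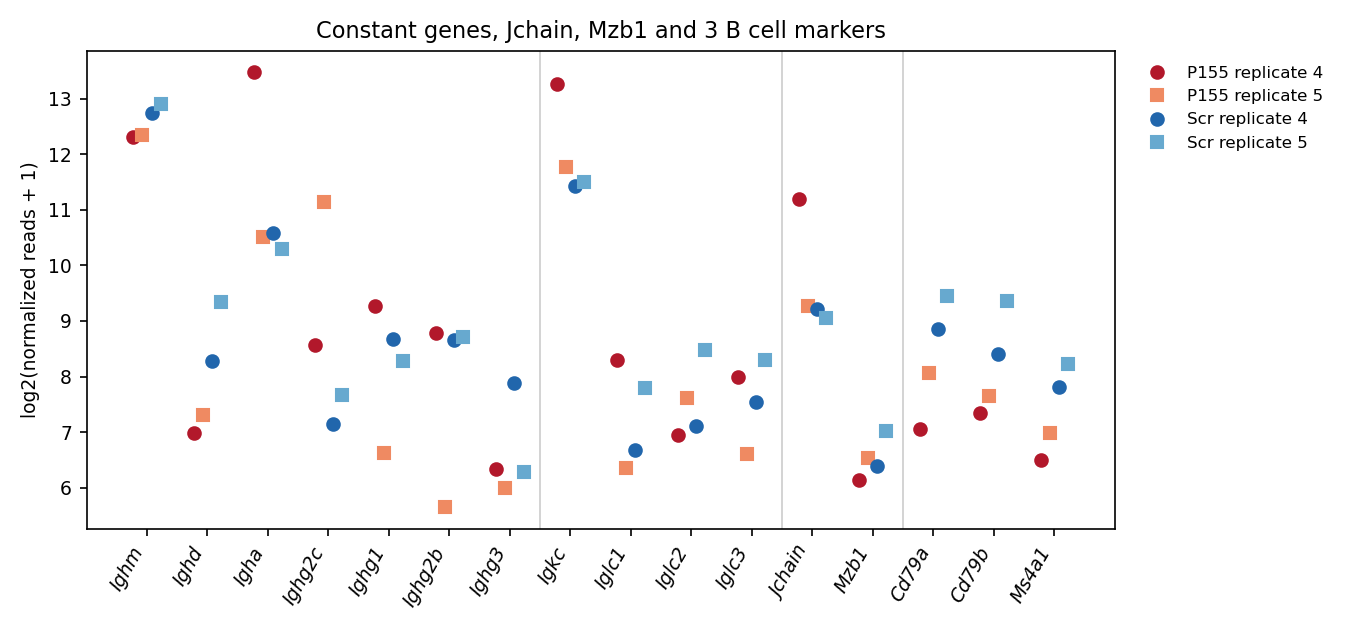
Level of each constant gene, Jchain, Mzb1 and 3 B cell markers (x axis) as log2(normalized reads + 1) (y axis), with 1 point per library. Ighd, Ighm and the 3 B cell markers lie lower in both P155 libraries, Igha, Igkc and Jchain are highest in P155 replicate 4, and Ighg2c is highest in P155 replicate 5.

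Use of the variable segments was spread over many segments in P155 replicate 4 and in both Scr libraries, and concentrated on 1 heavy and 1 kappa segment in P155 replicate 5. In P155 replicate 5, Ighv1-18 took 178 of 350 heavy variable reads, 50.9% (Wilson 95% interval 45.6 to 56.1). In the other libraries Ighv1-18 had 7 of 3015 reads in P155 replicate 4, and 6 of 778 and 0 of 192 reads in Scr replicates 4 and 5. Its closest relative Ighv1-26 had 15 reads in P155 replicate 5. Igkv6-23 took 439 of 787 kappa variable reads in P155 replicate 5, 55.8% (52.3 to 59.2). It had 76 of 4884 reads in P155 replicate 4 and 7 of 1315 and 0 of 681 in Scr replicates 4 and 5, and the last allows a share of up to 0.441%. Its closest relative Igkv6-13 was at 0 reads in P155 replicate 5 and at 50 in P155 replicate 4.

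The leading segments differed between all 4 libraries in both loci. In P155 replicate 4 the heavy leader was Ighv6-6, with 404 of 3015 reads or 13.4% (12.2 to 14.7), and the kappa leader was Igkv1-110, with 592 of 4884 reads or 12.1% (11.2 to 13.1). In Scr replicate 4 they were Ighv1-9, with 125 of 778 reads or 16.1% (13.7 to 18.8), and Igkv14-111, with 145 of 1315 reads or 11.03% (9.45 to 12.8). In Scr replicate 5 they were Ighv1-22, with 29 of 192 reads or 15.1% (10.7 to 20.9), and Igkv14-100, with 89 of 681 reads or 13.1% (10.7 to 15.8). Ighv1-9 had 23 and 2 reads in P155 replicates 4 and 5 and 0 in Scr replicate 5. Igkv14-100 had 13 and 0 reads in P155 replicates 4 and 5 and 13 in Scr replicate 4. Leading shares of 11.03% to 16.1% were thus seen in every library but P155 replicate 5.

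**Figure D4:**
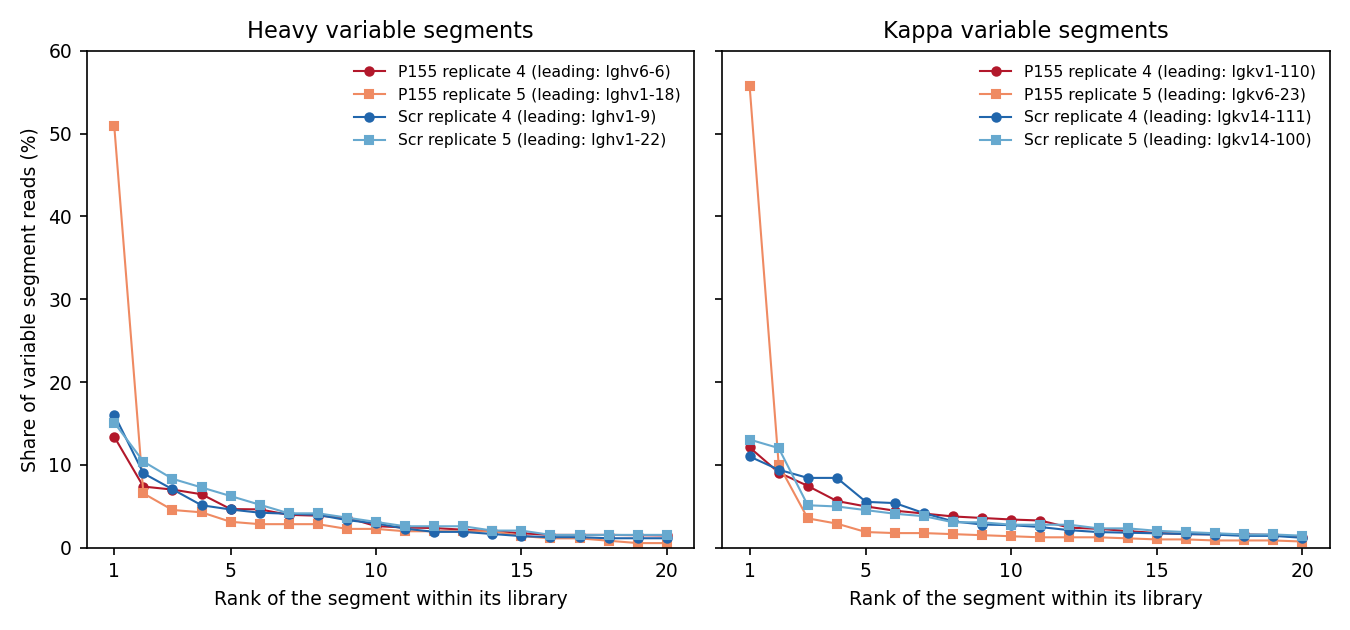
Share of variable segment reads (y axis, percent) for the 20 most used heavy (left) and kappa (right) segments, ranked within each library (x axis). The leading segment of P155 replicate 5 takes 50.9% of heavy and 55.8% of kappa variable reads, against 11.03% to 16.1% for the leading segments of the other libraries.

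The effective number of segments, the inverse Simpson index of the read shares, put the same pattern in a single value. For heavy segments it was 21.1 in P155 replicate 4 and 3.65 in P155 replicate 5, against 18.2 and 15.6 in Scr replicates 4 and 5. For kappa segments it was 21.1 and 3.06 in P155 replicates 4 and 5, against 19.9 and 19.6 in Scr replicates 4 and 5. The groups overlapped in both loci (exact permutation test, two-sided, p = 1). The group difference of -4.48 for heavy segments was -13.2 without P155 replicate 4 and 4.26 without P155 replicate 5, and that of -7.67 for kappa segments was -16.7 without P155 replicate 4 and 1.35 without P155 replicate 5. With the leading segment of each library set aside, the heavy index was 25.5 and 16.0 in the P155 libraries and 24.1 and 17.4 in the Scr libraries, and the kappa index was 23.6 and 12.7 in P155 and 20.8 and 22.3 in Scr.

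The number of segments with at least 1 read depended on depth. Of 83 heavy segments, 71 and 27 had a read in P155 replicates 4 and 5, and 59 and 29 in Scr replicates 4 and 5. Brought to 192 heavy variable reads in each library, the expected numbers were 46.0 and 24.7 in the P155 libraries and 47.1 and 29.0 in the Scr libraries. Of 88 kappa segments, 71 and 36 had a read in the P155 libraries and 60 and 53 in the Scr libraries, and at 681 reads the expected numbers were 61.9 and 35.8 in P155 and 58.3 and 53.0 in Scr. At equal reads P155 replicate 5 therefore had the fewest segments in both loci, and the groups still overlapped. The difference for heavy segments, 5 as counted, was -17 without P155 replicate 4, 27 without P155 replicate 5, 20 without Scr replicate 4 and -10 without Scr replicate 5. For kappa the difference of -3 was -20.5 without P155 replicate 4, 14.5 without P155 replicate 5, 0.5 without Scr replicate 4 and -6.5 without Scr replicate 5.

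Libraries of 1 group did not share more heavy segment use than libraries of different groups. The usage that 2 libraries shared, the sum over segments of the smaller of their read shares, was 32.1% between the P155 libraries and 29.4% between the Scr libraries for the 83 heavy segments. Between a P155 and a Scr library it was 21.4% to 44.9%, a range that holds both within-group values. For the 88 kappa segments it was 29.0% between the P155 libraries, 49.6% between the Scr libraries and 30.7% to 45.7% between groups, so the Scr pair lay above and the P155 pair below that range. The Ighv1 family was the largest, with 38 segments. It took 44.2% and 81.4% of heavy variable reads in P155 replicates 4 and 5, against 64.9% and 56.8% in the Scr libraries. In P155 replicate 5, Ighv1-18 alone gave 178 of the 285 reads of this family. In P155 replicate 4 the Ighv6 family, with 3 segments, had 516 reads, against 23 in P155 replicate 5 and 32 and 20 in Scr replicates 4 and 5.

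Single segments were mostly highest in P155 replicate 4, which also had the most variable segment reads. Of the 83 heavy segments, 56 had their highest normalized level in P155 replicate 4, 7 in P155 replicate 5, 17 in Scr replicate 4 and only 3 in Scr replicate 5. Of the 88 kappa segments, the numbers were 53 and 11 in the P155 libraries and 16 and 8 in the Scr libraries. Ighv6-6 had 404 and 16 reads in P155 replicates 4 and 5, against 0 and 4 reads in Scr replicates 4 and 5. Its log2 difference was 5.55 (SE 1.48, limma adjusted p = 0.861, unadjusted p = 0.0152). Igkv6-23, described above for P155 replicate 5, was also above both Scr libraries in P155 replicate 4, with a difference of 6.41 (SE 1.54, limma adjusted p = 0.861, unadjusted p = 0.0104) that was 4.65 without P155 replicate 5. Such fitted differences depend on the added 1, because 1 Scr library was at 0 for each of these segments.

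Igkv1-110, the only leading segment of the heavy and kappa loci with at least 35 reads in all libraries, had 592 and 79 reads in P155 and 111 and 35 reads in Scr. On the log2 scale it stood at 8.97 and 7.07 in the P155 libraries and at 6.52 and 4.93 in the Scr libraries, a difference of 2.29 (SE 0.87, limma adjusted p = 0.861) that was 1.35 without P155 replicate 4 and 1.50 without Scr replicate 5. Ighv1-18 lay above both Scr libraries in P155 replicate 4 by only 1 read, and its difference of 4.23 (SE 2.06, limma adjusted p = 0.861) was 1.51 without P155 replicate 5 and 6.96 without P155 replicate 4. Ighv10-1 had 195 and 8 reads in P155 and 7 and 0 reads in Scr, without overlap on the normalized scale. Ighv1-12, with 223 and 0 reads in P155 and 31 and 7 in Scr, and Ighv3-6, with 212 and 0 in P155 and 15 and 3 in Scr, were high in P155 replicate 4 alone. The same held for Igkv19-93, with 444 and 5 reads in P155 and 14 and 21 in Scr, and for Igkv4-57, with 365 and 4 reads in P155 and 9 and 5 in Scr. Without P155 replicate 4 the log2 difference turned from 0.03 to -3.75 for Ighv1-12, from 0.97 to -2.77 for Ighv3-6 and from 1.97 to -0.69 for Igkv19-93.

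At lower counts, Igkv13-85 had 28 and 4 reads in P155 replicates 4 and 5 and 0 in both Scr libraries, and Ighv2-5 had 5 and 4 reads in P155 and 0 in both Scr libraries. Igkv1-122 had 47 and 10 reads in P155 and 0 and 4 reads in Scr. In the other direction, without overlap, Ighv1-5 had 3 and 0 reads in P155 and 70 and 3 reads in Scr, where its normalized levels of 1.8197 in P155 replicate 4 and 1.8200 in Scr replicate 5 on the log2 scale can scarcely be told apart. Igkv4-68 had 5 and 0 reads in P155 and 10 and 9 reads in Scr. The joining segments were near the limit of detection, with 25 and 16 reads over 13 segments in the P155 libraries and 33 and 20 in the Scr libraries.

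No immunoglobulin gene passed the test across all genes. Genes were tested where 2 or more libraries had a normalized value of 1 or higher, and 148 of the 200 met that filter. Of these, 5 met it through P155 libraries alone and 2 through Scr libraries alone, so counts over them favour genes that differ. The other 52 genes had at most 50 reads in any library and 312 and 15 reads together in P155 replicates 4 and 5, against 106 and 15 in Scr replicates 4 and 5. With limma, 0 of the 148 had an adjusted p under 0.05, where the share over all 27079 genes tested was 0%, and none was below 0.861 after adjustment. Before adjustment, p was under 0.05 for 17 genes higher in P155, where the share over all genes was 1.17%, and for 2 genes lower, where it was 3.18%. With limma-voom on the recovered reads, 0 passed adjustment, and 15 were higher and 2 lower at an unadjusted p under 0.05 (1.23% and 2.73% of all genes). By limma on the log2 values the 17 were Ighg2c, 10 heavy and 6 kappa variable segments, and the 2 were Ighd and Ighm. Of the 17, 4 (Ighv1-4, Ighv1-74, Ighv2-5 and Igkv13-85) had 0 reads in both Scr libraries and met the filter through P155 alone. With at least 10 reads required in 2 libraries the 17 became 6, where the share over all genes was 1.03%, and the number lower was still 2, where it was 2.55%. The 17 became 9 without P155 replicate 4 (1.32% of all genes), 42 without P155 replicate 5 (0.595%), 7 without Scr replicate 4 (5.72%) and 6 without Scr replicate 5 (1.27%). The 2 lower genes became 15 (6.85% of all genes), 1 (2.29%), 3 (6.42%) and 4 (2.58%) in the same order. Without Scr replicate 4, the 7 of 148 were no larger a share than that of all genes.

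In 34 of the 148 genes the P155 libraries both exceeded the Scr libraries, a pattern that held for 15.2% of all genes tested. In 9 they both lay below, as for 19.6% of all genes tested. In all, 98 were higher and 50 lower on average in P155. Their median log2 difference was 0.74, against -0.03 over all genes tested. For heavy variable segments 46 of 62 tested were higher, with a median of 0.86, and for kappa variable segments 41 of 62, with a median of 0.78. For heavy constant genes 2 of 7 were higher, with a median of -0.53. These genes share cells, loci and libraries, so their number does not measure how firmly the groups differ.

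**Figure D5:**
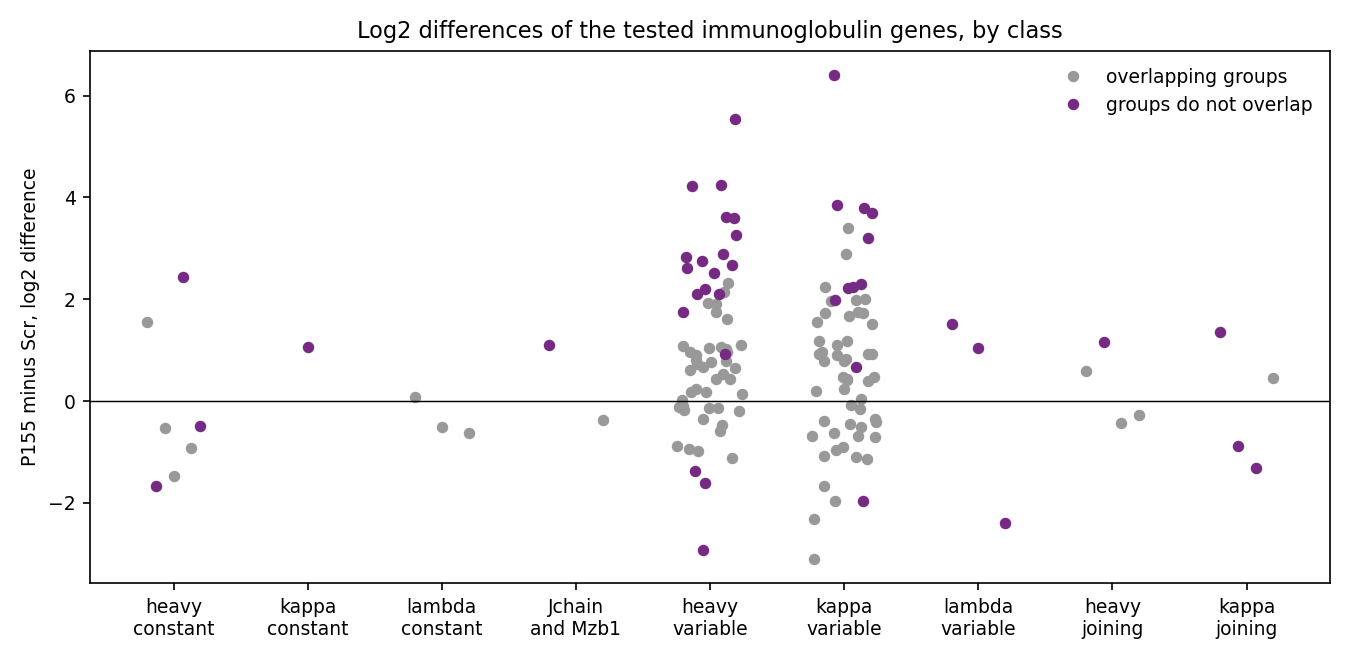
Log2 difference P155 minus Scr (y axis) for the 148 tested immunoglobulin genes by class (x axis), with purple points where the groups do not overlap. Most variable segments lie above 0, while 5 of 7 heavy constant genes lie below it.

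The authors' deposited table, whose columns do not name the test, had an FDR under 0.05 for 1 of the 200 immunoglobulin genes, where the share over all its genes was 0.53%. That gene was Ighd, with a log2 fold change of -1.66 and an FDR of 0.013 in the authors' deposited table. For Ighm the authors' deposited table gave an FDR of 0.0577, for Ighg2c 0.670 and for Igha 0.936.

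Markers of B cells as a type were lower in the P155 libraries, in contrast to the immunoglobulin sums. Of 20 B cell identity genes, 1 was higher and 19 were lower in P155, and their median difference was -1.02 on the log2 scale, against -0.03 over all genes tested. None passed adjustment, 10 were lower at an unadjusted p under 0.05 (3.18% of all genes tested), and 16 lay below both Scr libraries (19.6% of all genes tested). Lower levels were not particular to B cell genes. Median differences were -0.85 for pan-leukocyte, -0.75 for T cell, -0.80 for monocyte and macrophage and -1.41 for neutrophil genes. They were -0.95 for platelet, -0.65 for erythroid, 0.07 for myelin and 0.28 for neuron genes. Cd22, an inhibitory co-receptor of the B cell receptor, stood at 8.72 and 8.40 in P155 replicates 4 and 5 and at 9.55 and 10.50 in Scr replicates 4 and 5. Ms4a1, which encodes CD20, stood at 6.50 and 6.98 in P155 and at 7.81 and 8.23 in Scr, and the kinase gene Blk at 5.15 and 6.13 in P155 and at 7.24 and 7.79 in Scr. The tetraspanin gene Cd37, also expressed in other leukocytes, averaged 9.65 ± 0.12 in P155 and 10.67 ± 0.40 in Scr (SD, n = 2 each). The signalling chain gene Cd79a stood at 7.05 and 8.06 in P155 and at 8.85 and 9.46 in Scr. For each normalized read of the 20 B cell identity genes there were 2.77 and 0.876 immunoglobulin reads in P155 replicates 4 and 5, against 0.671 and 0.696 in Scr replicates 4 and 5. The groups did not overlap in that ratio, and P155 replicate 4 stood apart.

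Genes of plasma cells and of secretion did not all share 1 direction, but most were lower in P155. Of 18, 3 were higher and 15 lower, with a median of -0.28. At an unadjusted limma p under 0.05, 1 was higher (1.17% of all genes) and 3 were lower (3.18%). The P155 libraries both lay below the Scr libraries for 7 (19.6% of all genes tested) and above them for 2 (15.2%). Txndc5, a disulfide isomerase of the endoplasmic reticulum expressed in many cell types, stood at 12.27 and 12.11 in P155 replicates 4 and 5 and at 11.68 and 11.69 in Scr replicates 4 and 5. Pou2af1, a co-activator of octamer-binding factors in B cells, stood at 6.84 and 6.60 in P155 and at 7.79 and 7.98 in Scr. The transcription factor gene Irf4 averaged 6.98 ± 0.18 in P155 and 7.86 ± 0.05 in Scr, and Sdc1, which encodes CD138 and is also expressed outside plasma cells, averaged 9.23 ± 0.21 in P155 and 9.83 ± 0.14 in Scr (SD, n = 2 each). Tnfrsf17, which encodes the plasma cell receptor BCMA, was low everywhere, at 4.72 and 0 in P155 and at 2.91 and 4.62 in Scr. None of the 18 passed adjustment by limma (smallest adjusted p = 0.861).

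Of 12 genes of precursor B cells, 11 were lower in P155, with a median of -0.74, and 4 of them at an unadjusted p under 0.05 (3.18% of all genes). Igll1, a chain of the surrogate light chain, stood at 0 and 2.13 in P155 and at 4.85 and 3.86 in Scr, and its partner Vpreb1 at 2.60 and 0 in P155 and at 4.11 and 4.35 in Scr. Dntt, which adds bases at the joins of variable segments, averaged 3.71 ± 0.33 in P155 and 5.65 ± 0.63 in Scr (SD, n = 2 each). Cd93, also expressed by myeloid and endothelial cells, averaged 10.06 ± 0.19 in P155 and 10.79 ± 0.16 in Scr. Class switch and recombination genes had 5 higher and 6 lower of 11 (median -0.04), with 0 at an unadjusted p under 0.05. Among these, the interleukin receptor gene Il21r averaged 9.25 ± 0.24 in P155 and 10.06 ± 0.69 in Scr, and Cd40lg, the T cell ligand of CD40, 3.76 ± 0.74 in P155 and 4.76 ± 0.34 in Scr (SD, n = 2 each). The mismatch repair gene Msh6 averaged 10.59 ± 0.14 in P155 and 10.33 ± 0.11 in Scr (SD, n = 2 each). All 9 genes of antibody transport and Fc receptors were lower on average (median -0.65), with 1 lying below both Scr libraries (19.6% of all genes). Fcer1g, the common signalling chain of Fc receptors, stood at 11.69 and 11.21 in P155 and at 11.73 and 13.03 in Scr, the inhibitory receptor gene Fcgr2b at 11.83 and 10.70 in P155 and at 11.62 and 12.53 in Scr, Fcgr1 at 10.62 and 9.55 in P155 and at 10.44 and 11.02 in Scr, and Fcer1a, a chain of the mast cell IgE receptor, at 2.38 and 0 in P155 and at 2.34 and 3.36 in Scr.

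Markers of other cells differed between the same libraries. The 6 pan-leukocyte genes lay below both Scr libraries in all 6 cases (19.6% of all genes tested) and summed to 22176 and 15737 normalized reads in P155 replicates 4 and 5 and to 25760 and 41358 in Scr replicates 4 and 5. The 10 T cell genes summed to 2078 and 1337 in P155 and to 2119 and 4130 in Scr, with all 10 lower on average and 6 lying below both Scr libraries, as 19.6% of all genes tested did. Blood cell markers were lowest in P155 replicate 4, the library with the most immunoglobulin reads. There the 6 erythroid genes summed to 51369, against 140008 in P155 replicate 5 and 155563 and 102283 in Scr replicates 4 and 5, and the 8 neutrophil genes summed to 5318, against 25708 in P155 replicate 5 and 57332 and 16366 in the Scr libraries. The 5 platelet genes summed to 528 and 1040 in P155 and to 1974 and 1435 in Scr. The 9 rows that matched the 8 monocyte and macrophage symbols summed to 65768 and 42535 in P155 and to 74880 and 130798 in Scr. The 6 neuron genes summed to 391706 and 338081 in P155 and to 335784 and 254429 in Scr, and the 6 myelin genes to 725442 and 766481 in P155 and to 680404 and 694539 in Scr. Of these lists only Itgam, in the monocyte list, had a row at 0 in any library. The part of these differences in the immunoglobulin results was not tested.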

How the data were processed

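The authors deposited 1 table with log2 expression values per gene and library, and with the log2 fold change, p-value and FDR of their own comparison. Per the submitters' processing notes bcl2fastq, STAR 2.5.3a and DESeq2 were used with mm10. Not given in the sources used here are the read counter, the annotation and the use of strand. The authors' deposited log2 values were log2(normalized reads + 1), and 100% of values, undone, were whole multiples of 1 read within 1e-06, which gave the reads and size factors. All 200 gene IDs matched GENCODE M21 (mm10), which gave positions, lengths and sequences.

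For P155 against Scr, limma 3.58.1 (R 4.3.3) was fitted to the log2 values of 27079 genes, with Benjamini-Hochberg adjustment at 0.05. These genes had a normalized value of at least 1 in 2 or more libraries. The fit was also run on simulated counts. These had the same dispersion for every gene and changes in abundant genes only, so that run does not cover segments with few reads. Single values (18 sums, shares and indices) were compared by exact permutation with scipy 1.17.1, and their p-values, none under 0.33, were not adjusted. Shares have Wilson 95% intervals, and a count of 0 allows up to 3 reads; both cover counting error only. Differences are P155 minus Scr.

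Named were all constant genes, Jchain and Mzb1, the 5 most abundant segments of each locus, each library's leading segments, up to 5 segments per direction with the smallest p and no overlap, and up to 4 genes of each B lineage list by p. Cd79a, Cd79b, Tnfrsf17 and the closest relatives of segments were added after their values were seen. The genes and lists were chosen with earlier results of these data known. Alternatives covered the filter, pseudocount, scaling, variance prior, limma-voom, a replicate block and leaving out each library. Some genes of the lists are not reported here by name.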

Additional observations from a re-analysis of the deposited data

How the results depend on the processing

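No gene passed adjustment by limma under any of the 11 alternatives fitted across genes, with a smallest adjusted p of 0.116 to 0.985, against 0.368. The number of immunoglobulin genes higher at an unadjusted p under 0.05, 17, was 6 with at least 10 reads required in 2 libraries, and 6 to 42 with 1 library left out. The number lower, 2, was 1 to 15 with 1 library left out and 4 with the replicate block. The 2 groups share replicate numbers 4 and 5, but the labels do not say that a number marks a litter, day or batch, and deviations of same-numbered libraries had a correlation of 0.0705 over 27079 genes. The replicate block changed no adjusted call. With it, 23 of the 148 immunoglobulin genes tested were higher at an unadjusted limma p under 0.05, against 410 of all 27079 genes. The 4 lower of 148 compare with 785 lower of all 27079 genes, so they were no larger a share.

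Within replicate number 5 (the replicate block for single values), the difference turned to -0.19 for summed heavy constant genes and to -2 for heavy segments with a read. Within replicate number 4 it turned to 2.95 for the effective number of heavy segments, -2.67 points for the leading heavy share, 11 for kappa segments with a read and 1.21 for the effective number of kappa segments. At a common number of reads the heavy segments with a read differed by -2.69. With at least 10 reads per segment, the effective number of heavy segments differed by 3.41 and the kappa segments counted by 10. With 1 library left out, the ranges were -0.14 to 0.82 for summed heavy constant genes, -17 to 27 and -20.5 to 14.5 for heavy and kappa segments with a read, -13.2 to 4.26 and -16.7 to 1.35 for the effective numbers of heavy and kappa segments, and -2.19 to 35.3 points for the leading heavy share. The cause of these changes was not tested, beyond the library left out.

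Of 54 named genes, 44 kept their direction under every alternative that could be computed. With a pseudocount of 0.1 the log2 difference was -1.51 for Ighv1-12, 1.37 for Ighv1-9 and -0.43 for Ighv3-6. It was -0.0065 for Ighv1-12 with library size scaling and 0.68 for Ighv1-9 with limma-voom. With 1 library left out it was -1.85 to 0.79 for Ighg1, -3.04 to 0.10 for Ighg2b, -3.75 to 3.81 for Ighv1-12, -3.45 to 3.24 for Ighv1-9, -2.77 to 4.72 for Ighv3-6, -5.90 to 1.97 for Igkv14-111, -0.69 to 4.62 for Igkv19-93, -0.88 to 1.06 for Iglc1, -1.20 to 0.17 for Iglc2 and -1.32 to 0.070 for Iglc3. The effective numbers without the leading segment were an alternative chosen after seeing the data. With 2 libraries a group, and P155 replicate 5 with the fewest reads, segments with few reads limit every statement on segment use.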
